A study of Mus musculus with 2 samples.

Results

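The genes described here are the 10 MHC class I and immunoproteasome genes *B2m*, *H2-K1*, *H2-D1*, *Tap1*, *Tap2*, *Tapbp*, *Psmb8*, *Psmb9*, *Psmb10* and *Nlrc5*, chosen by name from the 32285 genes counted. All 10 had a row in every count table. The study compared spleen cells of PEP-WT mice, which carry the Wild Type *Ptpn22* gene, with those of PEP-619WW mice, the 619 WW Mutant, which are homozygous for the mouse counterpart of an autoimmunity-associated *PTPN22* allele. All mice were infected with LCMV-cl13, a persisting strain of the arenavirus LCMV, and were examined 8 days later (8 dpi), with no uninfected library in the data used here. Cells of 4 to 5 age- and sex-matched mice were pooled per genotype, sorted as live CD45+ cells and counted by the 10x Genomics 3' assay, in which each captured transcript carries a unique molecular identifier (UMI). The tables came as 2 runs, run 1 and run 2, with 1 library per genotype in each. The sources used here do not say how the runs relate. Whether the description above holds for run 2 was not settled, as set out below.

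MHC class I molecules show peptides from inside the cell to CD8 T cells. The proteasome cuts proteins into peptides, the transporter formed by *Tap1* and *Tap2* carries these into the endoplasmic reticulum, and tapasin (*Tapbp*) helps to load them onto a heavy chain (*H2-K1* or *H2-D1*) that is paired with beta-2 microglobulin (*B2m*). During infection, interferons induce *Psmb8*, *Psmb9* and *Psmb10*, whose products replace the constitutive catalytic subunits encoded by *Psmb5*, *Psmb6* and *Psmb7*, and *Nlrc5* encodes a transactivator of the class I genes.

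Of the 10 genes, 7 lie on chromosome 17 of the mouse genome build GRCm38, *Psmb10* and *Nlrc5* lie on chromosome 8, and *B2m* lies on chromosome 2 (positions 122147686 to 122153083). *Psmb9*, *Tap1*, *Psmb8* and *Tap2* follow each other within 34.3 kb of chromosome 17, from 34181987 to 34216321, and the annotated spans of *Psmb9* and *Tap1*, which are read in opposite directions, overlap. A RefSeq promoter window of 300 bases (250 before and 50 after the start, GRCm38.p6) was matched for 8 of the 10 genes, not for *Tap2* or *Nlrc5*. The stretches below are shown because the windows of the 3 surface genes share motifs in one order. They run 5′ to 3′ on the strand of the gene and end just after the Y box that follows the X2 box, beyond which lie another Y box in *H2-K1* and *H2-D1* and another X2 box core in *B2m*. The stretches of *B2m* and *H2-K1* lie before the annotated gene, and that of *H2-D1* lies inside the annotated gene span. Capitals mark any match, on either strand, to the interferon-stimulated response element core (GAAA, any 2 bases, GAAA), the NF-kB core (GGG, any 2 bases, TT, any base, CC), the X2 box core TGACG and the Y box CCAAT.
B2m, chr2:122147541-122147646, plus strand: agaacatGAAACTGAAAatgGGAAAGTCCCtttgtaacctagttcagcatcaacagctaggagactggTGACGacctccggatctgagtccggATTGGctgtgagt
H2-K1, chr17:34000351-34000465, minus strand: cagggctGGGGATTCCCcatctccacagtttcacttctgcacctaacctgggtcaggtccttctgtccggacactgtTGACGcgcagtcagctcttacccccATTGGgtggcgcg
H2-D1, chr17:35262916-35263030, plus strand: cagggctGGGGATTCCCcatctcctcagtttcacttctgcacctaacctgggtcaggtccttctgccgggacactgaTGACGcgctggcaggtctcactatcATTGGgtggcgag

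The NF-kB core was found in the windows of *B2m*, *H2-K1* and *H2-D1* and in 4.79% of all 32851 promoter windows searched. The X2 box core was found in *B2m*, *H2-K1*, *H2-D1*, *Tap1* and *Psmb9* and in 20.8% of all windows, and the Y box in those 5 genes and *Tapbp* and in 37.4% of all windows. In *B2m*, *H2-K1* and *H2-D1* a Y box starts exactly 25 bases after the start of an X2 box core, a spacing looked for after it had been seen in these sequences and found in 0.110% of all windows. The response element core was matched in *B2m* (3.44% of all windows), and the windows of *Psmb8* and *Psmb10* held none of these 4 motifs. The windows of *Tap1* and *Psmb9* share 275 bases. These are matches of letters, not measured binding sites, and other spellings of these elements were not searched.

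The runs stood apart from each other. Run 1 held 14821 PEP-WT and 8576 PEP-619WW barcodes with 77916082 and 56745578 UMIs, and run 2 held 9539 and 11029 barcodes with 70500076 and 55504449 UMIs. The labels name liver, the human T cell line Jurkat and tumor-infiltrating cells, although their protocol text describes splenocytes. The 5 hepatocyte genes looked for had at most 5 UMIs together in any gate. This cannot tell liver from spleen, since the cells were described as sorted for CD45, a marker of immune cells. The barcode numbers of the second run match the cell numbers that the methods of the study give, and those of the first are not given there. Barcodes with at least 3 of 6 melanocyte genes numbered 0 in both libraries of run 1, and 274 in PEP-WT and 27 in PEP-619WW in run 2. *Xist*, which is read from an inactive X chromosome, had 64344 and 45556 UMIs in run 1 but 18435 in PEP-WT and 5 in PEP-619WW in run 2, where 4 Y-linked genes had 4892 and 8893 UMIs. The mice were described as sex matched, so the libraries of run 2 do not match that description. The tissue, infection and day given above are those of the study's description. Whether they hold for each run, and for run 2 in particular, was not settled by the counts. In the gates defined below, PEP-WT of run 2 held 28 CD8 T, 12 CD4 T, 2 B and 0 plasma barcodes. PEP-WT of run 1 held 1439, 361, 6937 and 2361. Between 19 and 49 barcode sequences were shared by any pair of libraries. Because each genotype is 1 pooled library in a run, no test between genotypes was possible and each ratio below is the ratio of 2 libraries, with a 95% interval that covers counting error only.

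Barcodes were assigned to 6 cell gates from a few genes: CD8 T (*Cd3e* and *Cd8b1* detected), CD4 T (*Cd3e* and *Cd4*), B (*Cd79a* and *Ms4a1*), plasma (at least 5 *Mzb1* UMIs), monocyte or macrophage (at least 5 *Lyz2* UMIs) and neutrophil (at least 20 *S100a8* and *S100a9* UMIs). In run 1 the gates held 1439 and 953 CD8 T, 361 and 261 CD4 T, 6937 and 3144 B, 2361 and 1893 plasma, 1600 and 1236 monocyte or macrophage, and 806 and 864 neutrophil barcodes in PEP-WT and PEP-619WW. In run 2, 6488 and 4919 barcodes were in the monocyte or macrophage gate and 590 and 1071 in the neutrophil gate, whereas PEP-WT had 28 CD8 T, 12 CD4 T, 2 B and 0 plasma barcodes, so that genotypes were compared in the myeloid gates alone. All markers that a gate had not itself used were detected in that gate, and their summed level was highest there in each library, apart from CD8 T markers in PEP-619WW of run 1 (3240 UMIs per 1000000, CPM, in CD8 T against 3723 CPM in CD4 T) and CD4 T markers in PEP-619WW of run 2 (2721 against 3207 CPM in CD8 T), lists that share most of their genes. The gates are not pure. Of the run 1 plasma barcodes 1591 of 2361 in PEP-WT and 1132 of 1893 in PEP-619WW were also in another gate. So were 593 of 806 and 654 of 864 neutrophil barcodes. Of the monocyte or macrophage barcodes only 709 of 1600 and 436 of 1236 were in no other gate, and 554 and 562 were also neutrophil barcodes. In that gate neutrophil markers that no gate had used summed to 2974 and 5933 CPM, against 1983 and 1886 CPM for its own.

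Across the gates of run 1 the class I pathway was detected in each gate, and the mean level of each gene differed between these overlapping gates by less than 2-fold. Among barcodes in no other gate the spread was wider, at 3.8-fold for *Tap1* and 3.96-fold for *Nlrc5* between neutrophils and plasma cells and 4.05-fold for *Psmb10* between the monocyte or macrophage gate and plasma cells. There *Tap1* was at 572 CPM in PEP-WT and 427 CPM in PEP-619WW neutrophils and at 134 and 129 CPM in plasma cells, and *Nlrc5* at 133 and 108 CPM, from 54 and 43 UMIs, and at 31.1 and 29.6 CPM. With all barcodes of each gate the order was as follows. The myeloid gates held the highest levels of *H2-D1*, with 3565 CPM in PEP-WT and 3206 CPM in PEP-619WW neutrophils and 2925 and 2994 CPM in the monocyte or macrophage gate. Both libraries of each of these gates lay above all those of the lymphoid gates, the lowest of which were B cells at 2111 and 2168 CPM. *Tap1*, a subunit of the peptide transporter, was likewise highest in neutrophils (364 and 325 CPM) and the monocyte or macrophage gate (339 and 318 CPM) and lowest in plasma cells (191 and 187 CPM). Plasma cells were also lowest in both libraries for *Nlrc5*, at 43.0 CPM in PEP-WT and 42.4 CPM in PEP-619WW, while the other gates ranged from 62.2 to 87.4 CPM and overlapped with their neighbours in order. For *Tap2* and *Tapbp* the plasma gate was again below the rest, at 102 and 104 CPM and at 151 and 154 CPM. The totals behind these levels include immunoglobulin transcripts, which were left out only in an alternative for the genotype ratios. Their part in the low plasma levels here and below was not tested.

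With all barcodes of each gate, the mean of the highest gate over that of the lowest was 1.2-fold for *H2-K1*, 1.22-fold for *Psmb9*, 1.24-fold for *Psmb8*, 1.41-fold for *B2m* and 1.99-fold for *Psmb10*. *Psmb10*, which encodes the trypsin-like subunit of the immunoproteasome, was highest in the monocyte or macrophage gate (400 and 305 CPM) and lowest in plasma cells (199 and 155 CPM). For *Psmb8*, *Psmb9* and *Psmb10* no gate stood clear of its neighbour in this order.

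**Figure D1:**
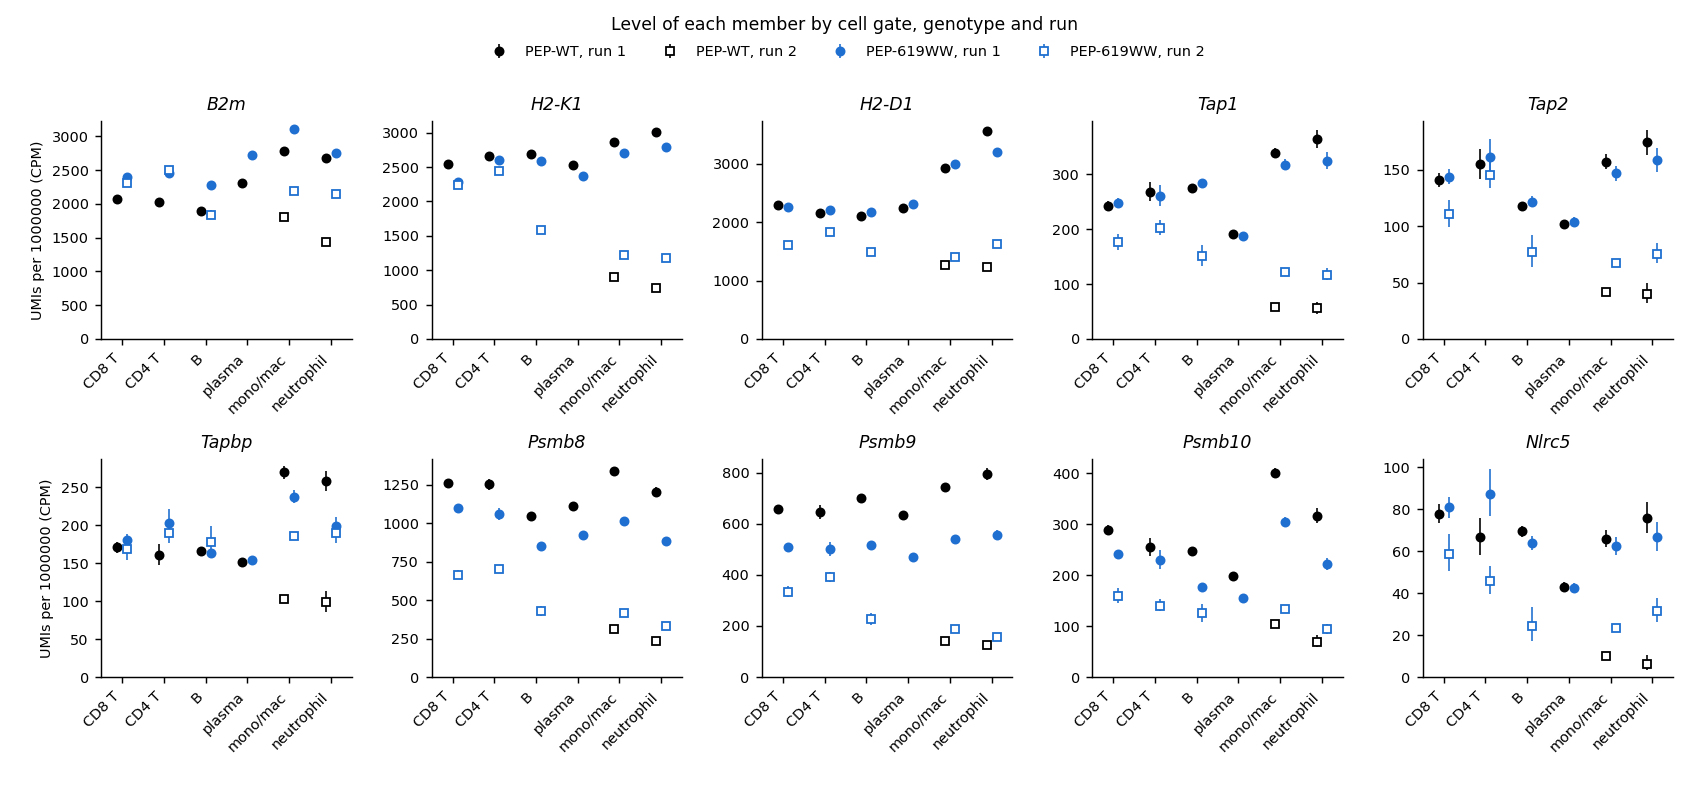
Each panel shows 1 gene, with the level in UMIs per 1000000 (CPM, linear axis from 0) on the y axis and the 6 cell gates on the x axis. Black is PEP-WT and blue PEP-619WW, filled circles are run 1 and open squares run 2 (gates with at least 50 barcodes), bars are 95% Poisson intervals, and the blue circles of Psmb8, Psmb9 and Psmb10 lie below the black ones in all 6 gates of run 1.

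The immunoproteasome subunits were lower in PEP-619WW than in PEP-WT in every gate of run 1. *Psmb9*, the immunoproteasome subunit that takes the place of the caspase-like *Psmb6*, was at 658 CPM in PEP-WT and 511 CPM in PEP-619WW CD8 T cells, at 646 and 500 CPM in CD4 T cells, and at 700 and 515 CPM in B cells. It was at 634 and 472 CPM in plasma cells, at 746 and 540 CPM in the monocyte or macrophage gate, and at 795 and 557 CPM in neutrophils. Every PEP-619WW level thus lay below every PEP-WT level, whichever of these gates are set against each other, which did not hold among barcodes in no other gate (728 CPM in PEP-619WW neutrophils and 520 CPM in PEP-WT plasma cells). The log2 ratio of PEP-619WW to PEP-WT ran from -0.37 in CD8 T cells (interval -0.41 to -0.32) to -0.51 in neutrophils (-0.58 to -0.45).

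*Psmb8*, the chymotrypsin-like subunit, showed log2 ratios from -0.20 in CD8 T cells (1265 and 1098 CPM) to -0.44 in neutrophils (1206 and 887 CPM), and its interval lay below 0 in 6 of 6 gates. In B cells it was at 1047 CPM in PEP-WT and 855 CPM in PEP-619WW, and in plasma cells at 1112 and 923 CPM. *Psmb10* was lower by a log2 ratio of -0.49 in B cells (248 and 176 CPM), -0.39 in the monocyte or macrophage gate and -0.51 in neutrophils (316 and 222 CPM). In CD4 T cells its ratio was -0.15 with an interval that held 0 (-0.30 to 0.00). Among the 213 PEP-WT and 210 PEP-619WW neutrophil barcodes that were in no other gate, *Psmb10* had 83 and 93 UMIs and a log2 ratio of 0.20 (-0.25 to 0.64), the opposite sign.

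None of the 10 genes differed by 1.5-fold in any gate of run 1. The share that did so in either direction, among all genes with at least 100 UMIs, was 6.09% in CD8 T cells, 10.1% in CD4 T cells, 7.43% in B cells, 6.86% in plasma cells, 6.61% in the monocyte or macrophage gate and 10.7% in neutrophils. At a log2 ratio of -0.32 or less, *Psmb9* was lower in PEP-619WW in all 6 gates, *Psmb10* in 4, *Psmb8* in 2 and *Tapbp* in 1, neutrophils. The share of all genes at or below that ratio was 10.5% in CD8 T cells, 16.7% in CD4 T cells, 11.1% in B cells, 12.6% in plasma cells, 16.5% in the monocyte or macrophage gate and 24.1% in neutrophils. The median log2 ratio over all genes was between -0.07 and 0.01 in the first 5 gates and -0.11 in neutrophils, nearer to 0 than any of the 18 ratios of *Psmb8*, *Psmb9* and *Psmb10*.

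**Figure D2:**
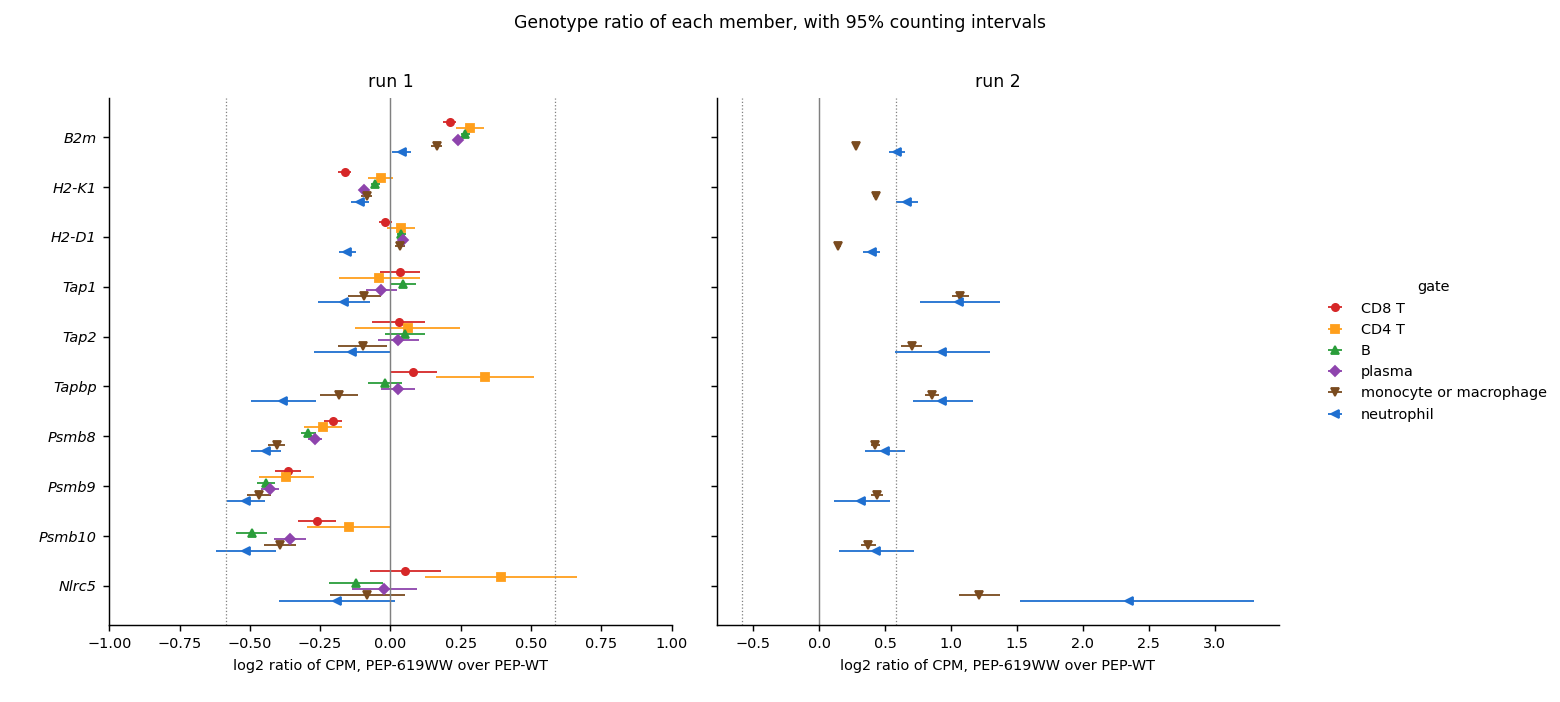
The x axis is the log2 ratio of CPM, PEP-619WW over PEP-WT, for each gene (rows) in run 1 (left) and run 2 (right, a wider axis). Symbols and colors are the gates, bars are 95% counting intervals, the solid line is no difference and dotted lines mark 1.5-fold. In run 1 the symbols of Psmb8, Psmb9 and Psmb10 lie left of the solid line, and in run 2 all 20 lie right of it.

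The constitutive subunits that these 3 genes replace differed less between the genotypes of run 1, apart from CD4 T cells, where *Psmb5* (-0.31) and *Psmb7* (-0.16) had log2 ratios at least as far from 0 as *Psmb8* (-0.24) and *Psmb10* (-0.15). *Psmb6*, the counterpart of *Psmb9*, was at 223 and 230 CPM in PEP-WT and PEP-619WW B cells, a log2 ratio of 0.04, and at 293 and 292 CPM in plasma cells. *Psmb7*, the counterpart of *Psmb10*, had log2 ratios from -0.16 in CD4 T cells to 0.09 in CD8 T cells. *Psmb5*, the counterpart of *Psmb8*, was lower in all 6 gates, by -0.11 in CD8 T cells to -0.31 in CD4 T cells, but 36.7% of the 90-base windows near its 3′ end also occur in *Gm3375*, so its counts are uncertain. No such window of the 10 genes occurred in another gene.

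As a balance of both sets, the UMIs of *Psmb8*, *Psmb9* and *Psmb10* were divided by those of *Psmb5*, *Psmb6* and *Psmb7*, a ratio read only between libraries because capture differs between genes. In run 1 it was 3.80 in PEP-WT and 3.02 in PEP-619WW B cells, 2.91 and 2.42 in plasma cells, and 3.31 and 2.88 in CD8 T cells. It was 3.87 and 3.28 in the monocyte or macrophage gate and 4.52 and 3.73 in neutrophils. In these 5 gates the intervals of the genotypes did not overlap. In CD4 T cells, with 3.21 (3.06 to 3.36) and 3.12 (2.95 to 3.31), they did. For *Psmb9* over *Psmb6* alone the ratio was 3.14 (3.06 to 3.22) in PEP-WT and 2.24 (2.17 to 2.32) in PEP-619WW B cells, and 2.16 and 1.62 in plasma cells. *Psmb10* over *Psmb7* was 2.53 and 1.81 in B cells and 1.94 and 1.96 in CD4 T cells.

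Barcodes outside every gate, 4208 in PEP-WT and 2404 in PEP-619WW, gave like ratios. There the log2 ratio was -0.31 for *Psmb9*, -0.30 for *Psmb10*, -0.24 for *Psmb8* and 0.26 for *B2m*. The hemoglobin-rich barcodes among them (at least 100 hemoglobin UMIs, 613 in PEP-WT and 61 in PEP-619WW) went the other way for *Psmb9*, at 229 and 369 CPM, and the same way for *B2m*, at 1135 and 2004 CPM.

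The surface genes had ratios of either sign. *B2m* was higher in PEP-619WW in 6 of 6 gates of run 1: in CD8 T cells it was at 2075 and 2402 CPM, in CD4 T cells at 2026 and 2464 CPM, in B cells at 1893 and 2277 CPM, and in plasma cells at 2310 and 2729 CPM. In the monocyte or macrophage gate it was at 2777 and 3111 CPM and in neutrophils at 2678 and 2752 CPM. The log2 ratio was between 0.16 and 0.28 in the first 5 gates and 0.04 in neutrophils, where it was -0.15 among barcodes in no other gate and -0.12 when each barcode was weighted equally.

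*H2-K1*, a classical heavy chain, was lower in PEP-619WW in all 6 gates, from -0.03 in CD4 T cells (2669 and 2606 CPM, an interval that held 0) to -0.16 in CD8 T cells (2551 and 2278 CPM). In the monocyte or macrophage gate and neutrophils its ratios of -0.08 and -0.11 were near the median of all genes there (-0.07 and -0.11), and with stricter gates it was higher in PEP-619WW in CD4 T cells (0.10, interval 0.03 to 0.18). *H2-D1*, the other heavy chain, had log2 ratios between -0.02 and 0.04 in 5 gates and -0.15 in neutrophils, and its sign in the first 5 changed with at least 1 alternative setting. *H2-D1* was at 2292 and 2261 CPM in CD8 T cells and at 2242 and 2310 CPM in plasma cells. In plasma cells *H2-K1* was at 2536 and 2378 CPM, so that a heavy chain and its partner *B2m* had ratios of unlike sign in the same libraries.

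Of the transporter and loading genes, *Tapbp* was lower in PEP-619WW in the myeloid gates, where *Tap1* and *Tap2* lay near the median of all genes, and in the lymphoid gates the ratios depended on which barcodes were kept. *Tap1* had log2 ratios of 0.03 in CD8 T cells (242 and 248 CPM), 0.04 in B cells (275 and 283 CPM), -0.09 in the monocyte or macrophage gate and -0.16 in neutrophils. *Tap2*, the other transporter subunit, lay between -0.14 in neutrophils and 0.06 in CD4 T cells, and was at -0.10 in the monocyte or macrophage gate. The median over all genes was -0.07 in the monocyte or macrophage gate and -0.11 in neutrophils, and relative to it *Tap1* was at -0.02 and -0.06, *Tap2* at -0.03 and -0.03, and *Tapbp* at -0.11 and -0.28. Among barcodes in no other gate *Tap1* was higher in PEP-619WW in CD8 T cells (0.20, interval 0.09 to 0.30) and B cells (0.20, 0.13 to 0.27), as was *Tap2* (0.20, 0.07 to 0.33, and 0.13, 0.02 to 0.24). The log2 ratios of *Tapbp* were more spread: 0.34 in CD4 T cells (161 and 203 CPM, interval 0.16 to 0.51) and -0.38 in neutrophils (258 and 198 CPM, interval -0.50 to -0.27).

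*Nlrc5*, the transactivator, had an interval that excluded 0 in 2 gates. In CD4 T cells it was at 66.5 CPM in PEP-WT and 87.4 CPM in PEP-619WW, from 220 and 244 UMIs, a log2 ratio of 0.39 (0.12 to 0.66). In B cells it was at 69.3 and 63.7 CPM, a ratio of -0.12 (-0.22 to -0.03). Neither interval excluded 0 among barcodes in no other gate, where the ratio was 0.20 in CD4 T cells (-0.17 to 0.57) and -0.04 in B cells (-0.18 to 0.10), and with each barcode weighted equally it was 0.02 in CD4 T cells. CD4 T cells were the only gate of run 1 in which genes of the set had a log2 ratio of 0.32 or more, namely *Tapbp* and *Nlrc5*, as did 15.8% of all genes. With gates of at least 2 UMIs of each gate gene, these 2 of the 10 genes were past 1.5-fold there (0.65 and 0.66), as were 10.6% of all genes in either direction. With each barcode weighted equally *Tapbp* was at 0.17 in CD4 T cells.

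Markers of other cell types moved with genotype in the same gates. The 6 erythroid marker genes, all detected in the PEP-WT gates, summed to between 1425 and 3235 CPM in the PEP-WT gates of run 1 and to between 104 and 1272 CPM in the PEP-619WW gates (5 of 6 genes detected in CD4 T cells, 6 in the others). The 7 neutrophil markers, all detected, summed to 24418 and 38463 CPM in the monocyte or macrophage gate, 1377 and 2806 CPM in the B gate and 1006 and 1805 CPM in the plasma gate, but to 2128 and 1463 CPM in the CD8 T gate. The 7 plasma markers summed to 4043 and 6230 CPM in the B gate and to 3100 and 4619 CPM in the CD8 T gate. In the monocyte or macrophage gate of run 2 the erythroid sum was 387 and 1.69 CPM. Their part in the ratios was not tested. *Psmb8* and *Psmb9* stayed lower in PEP-619WW in all 6 gates with immunoglobulin and hemoglobin genes left out of the totals, or with single-gate barcodes. Across 8 alternatives both kept their sign in 48 of 48 values, and *Psmb10* in 47 of 48. These alternatives reuse the same libraries and do not remove transcripts of other cell types from a barcode.

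The other genes of the pathway came from lists of gene names. The proteasome activators and the assembly factor (*Psme1*, *Psme2*, *Psme3* and *Pomp*) had log2 ratios below 0 in all 6 gates of run 1, with medians from -0.22 to -0.37. *Psme2*, a subunit of the interferon-inducible activator PA28, was the lowest of them in B cells (327 and 235 CPM, -0.48) and in neutrophils (488 and 323 CPM, -0.59). The 11 remaining core subunits had medians from -0.12 to -0.22, with 10 or 11 of the 11 below 0 in each gate. *Psma7* was the lowest in CD4 T cells (-0.50), below each immunoproteasome gene there, and *Psmb4* the highest in B cells (0.08). In CD4 T cells the core median (-0.22) was near that of the immunoproteasome genes (-0.24), and in the other gates it was nearer to 0. The median of all genes was between -0.01 and 0.01 in the lymphoid gates, -0.07 in the monocyte or macrophage gate and -0.11 in neutrophils. The share of all genes below 0 was not computed for the counts above.

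Of 13 other class I genes listed, 11 had a row and 7 or 8 had at least 100 UMIs in a gate. Their median log2 ratio was 0.17 in CD4 T cells, with 4 above 0 and 3 below. It was between -0.10 and -0.06 in CD8 T cells, B cells, plasma cells and the monocyte or macrophage gate. There 3, 3, 3 and 1 of 8 were above 0. In neutrophils their median was -0.16, with 0 of 8 above. The median of all genes was -0.07 in the monocyte or macrophage gate and -0.11 in neutrophils, and near 0 in the other gates. *H2-T22*, a nonclassical heavy chain, was lower in PEP-619WW in all 6 gates, from -0.23 in CD4 T cells to -0.48 in the monocyte or macrophage gate (301 and 216 CPM). *H2-Q10* was lower in the monocyte or macrophage gate (27.2 and 13.9 CPM, -0.96) and in neutrophils (97.4 and 36.3 CPM, -1.42) but not in CD8 T cells (26.4 and 29.4 CPM, 0.15) or CD4 T cells (17.2 and 25.4 CPM from 57 and 71 UMIs, 0.56). *H2-T23*, which encodes the nonclassical molecule Qa-1, had log2 ratios above 0 in the lymphoid gates, from 0.06 in CD8 T cells to 0.17 in CD4 T cells (429 and 481 CPM). These genes are near copies of each other, and how their reads were divided was not examined here.

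Among the regulators of class I expression, *Irf7*, which encodes an interferon regulatory factor, had the lowest log2 ratio in 5 gates of run 1, for example 188 and 76.8 CPM in CD8 T cells (-1.29) and 516 and 215 CPM in neutrophils (-1.26). In CD4 T cells *Ciita*, the class II transactivator, was lower (30.8 and 10.4 CPM from 102 and 29 UMIs, -1.57). The 7 B cell markers, all detected, summed to 551 CPM in PEP-WT and 270 CPM in PEP-619WW in that gate, and *Ciita* itself was at 138 and 105 CPM in B cells. The part of B cell transcripts in this ratio was not tested. *Irf2*, another interferon regulatory factor, was at 143 and 145 CPM in CD8 T cells and 172 and 191 CPM in B cells.

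Interferon-stimulated genes were lower in PEP-619WW as a list. Of the 14 listed, 13 had a row, and all 13 were below 0 in every gate of run 1. The medians were -0.87 in CD8 T cells, -0.36 in CD4 T cells, -0.73 in B cells, -0.79 in plasma cells, -0.75 in the monocyte or macrophage gate and -1.04 in neutrophils. Lower by at least 1.5-fold were 9 of them in CD8 T cells, 3 in CD4 T cells and 10 in B cells, where 3.28%, 5.55% and 2.98% of all genes were. In plasma cells, the monocyte or macrophage gate and neutrophils the counts were 10, 8 and 12, where 3.44%, 3.88% and 7.7% of all genes were. *Isg15*, a ubiquitin-like protein, was at 358 and 122 CPM in CD8 T cells (-1.55) and at 1505 and 394 CPM in neutrophils (-1.93). The study reported some of these genes as higher in PEP-WT CD4 T cells, without saying from which run. The cell numbers it gives match run 2. The CD4 T gate of run 1 had that direction, with all 13 genes lower in PEP-619WW. PEP-WT of run 2 held 12 CD4 T barcodes, too few to compare the genotypes in that gate. In both myeloid gates of run 2 the median of the list had the opposite sign. Because some of its genes had been named before, the list is no independent evidence of its direction in either run. The median of the 3 immunoproteasome genes had the same sign and was nearer to 0 than that of the list in all 6 gates, but *Psmb9* in CD4 T cells (-0.37) was just below the list's median there.

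**Figure D3:**
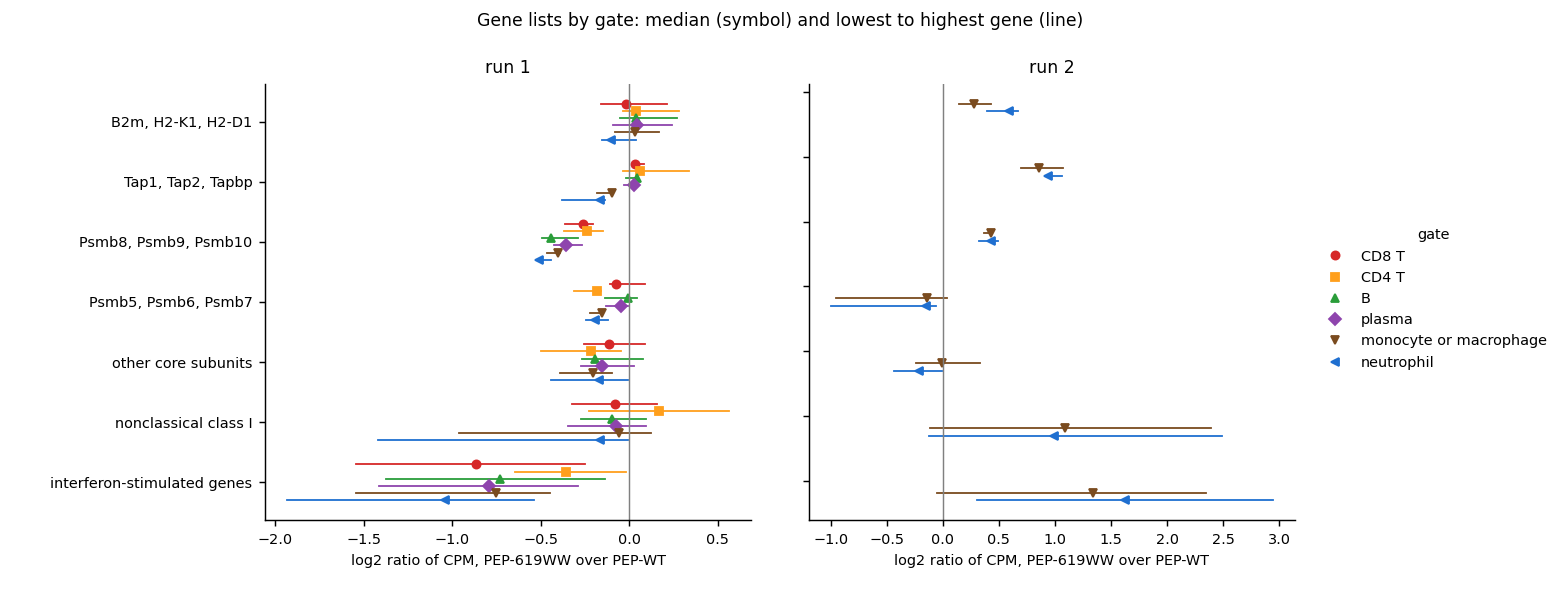
The x axis is the log2 ratio of CPM, PEP-619WW over PEP-WT, and each row is a gene list. Symbols are the median of the listed genes with at least 100 UMIs in a gate, and lines run from the lowest to the highest gene (run 1 left, run 2 right, different axes). In run 1 the interferon-stimulated genes reach from -1.93 to -0.02 and the median of the immunoproteasome genes lies between those of the interferon-stimulated genes and of the constitutive subunits in every gate.

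In run 2 all 10 genes were higher in PEP-619WW in both gates compared, the opposite sign to that of the immunoproteasome genes in run 1, a difference between the runs that was not tested. In the monocyte or macrophage gate the 10 genes were higher with a median log2 ratio of 0.43, where the median of all genes was 0.11. *Tap1* was at 58.4 and 122 CPM (1.07), *Tapbp* at 103 and 186 CPM (0.86) and *Nlrc5* at 10.1 and 23.4 CPM from 626 and 802 UMIs (1.21). Together with *Tap2* (41.5 and 67.3 CPM, 0.70) these 4 genes were past 1.5-fold, as were 22.4% of all genes in that direction. *H2-K1* was at 907 and 1220 CPM (0.43), *B2m* at 1813 and 2194 CPM (0.28) and *H2-D1* at 1272 and 1406 CPM (0.14).

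The immunoproteasome genes of that gate were also higher in PEP-619WW in run 2, *Psmb8* at 312 and 419 CPM (0.43), *Psmb9* at 140 and 189 CPM (0.44) and *Psmb10* at 104 and 134 CPM (0.37). In run 1 the same gate had 1343 and 1015, 746 and 540, and 400 and 305 CPM of these genes, so that both libraries of run 2 lay below both of run 1. In neutrophils of run 2 the median log2 ratio was 0.63, against 0.25 for all genes, and 6 of the 10 genes were past 1.5-fold, as were 27.5% of all genes. *Nlrc5* had the highest ratio there, 2.35 (1.52 to 3.30), from only 13 and 123 UMIs. *Tap1* was at 56.1 and 117 CPM (1.06), *Tap2* at 39.8 and 75.7 CPM (0.93) and *Tapbp* at 99.2 and 190 CPM (0.93). *H2-K1* was at 741 and 1177 CPM (0.67) and *B2m* at 1431 and 2149 CPM (0.59). The other 4 genes were below 1.5-fold, although each passed it under at least 1 alternative: *Psmb8* at 234 and 330 CPM (0.50), *Psmb10* at 69.5 and 93.8 CPM (0.43), *H2-D1* at 1233 and 1623 CPM (0.40) and *Psmb9* at 126 and 157 CPM (0.32). Among barcodes in no other gate *Psmb8* was at 1.41 (69 and 379 UMIs), *Psmb10* at 0.79 (21 and 75 UMIs) and *H2-D1* at 0.62. There 9 of the 10 genes were past 1.5-fold, as were 31.8% of all genes with at least 100 UMIs, which *Psmb10* and *Nlrc5* did not reach. With each barcode weighted equally *Psmb8* was at 0.73 and *Psmb9* at 0.61, and 8 genes were, as were 29.8% of all genes. With median-ratio scaling *B2m* (0.34) and *H2-K1* (0.42) fell below 1.5-fold.

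The lymphoid gates of run 2 could be described in PEP-619WW alone, where they held 394 CD8 T, 438 CD4 T and 503 B cell barcodes. *Psmb9* was at 334 CPM in CD8 T, 390 CPM in CD4 T and 227 CPM in B cells there, each above the 189 CPM of the monocyte or macrophage gate and the 157 CPM of neutrophils of that library. *H2-K1* was likewise higher in the lymphoid gates, at 2246 CPM in CD8 T, 2440 CPM in CD4 T and 1586 CPM in B cells against 1220 and 1177 CPM in the myeloid gates. In run 1 the order was the other way in both libraries, with *Psmb9* and *H2-K1* highest in the myeloid gates.

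*Psmb6*, the constitutive counterpart of *Psmb9*, went the other way in run 2, with 464 CPM in PEP-WT and 240 CPM in PEP-619WW in the monocyte or macrophage gate (-0.95) and 282 and 142 CPM in neutrophils (-0.99). *Psmb5* (0.04 and -0.06) and *Psmb7* (-0.14 and -0.15) differed less in these gates. The balance of inducible to constitutive subunits was 0.694 in PEP-WT and 1.31 in PEP-619WW in the monocyte or macrophage gate, and 0.807 and 1.55 in neutrophils. Without *Psmb6* it was 1.66 and 2.26 in the monocyte or macrophage gate and 1.72 and 2.48 in neutrophils. In the monocyte or macrophage gate *H2-Q6*, a nonclassical heavy chain, had the highest log2 ratio of the other class I genes (3.66 and 19.1 CPM, 2.39), and *Ciita* that of the other regulators (15 and 112 CPM, 2.90).

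Interferon-stimulated genes were higher in PEP-619WW in run 2, with a median log2 ratio of 1.34 in the monocyte or macrophage gate and 1.62 in neutrophils. *Bst2*, a surface protein that tethers virions, was the exception in the former (395 and 380 CPM, -0.06). The makeup of the gate also differed between the genotypes, since *Folr2*, a marker of some tissue macrophages, was detected in 2682 of its 6488 PEP-WT and in 552 of its 4919 PEP-619WW barcodes. The median log2 ratio of the 10 genes was 0.60 with a *Folr2* UMI and 0.29 without one, a split chosen after the data had been seen. *B2m* was at 1715 and 2612 CPM with a *Folr2* UMI (0.61) and at 1934 and 2122 CPM without one (0.13), while *Tap1* had ratios of 1.26 and 0.83. Markers of T cells and neutrophils also differed in this gate, with summed levels of 11.4 and 234 CPM for the CD8 T list, 15 and 243 CPM for the CD4 T list and 483 and 1342 CPM for the neutrophil list, all 7 genes of each being detected. Among barcodes in no other gate the median log2 ratio of the 10 genes was 0.39. Melanocytic barcodes made up 193 of its PEP-WT barcodes and 16 of those in PEP-619WW, and without them, an alternative also added after the data had been seen, the median was 0.44. The part of the other cell types and of the sex-linked transcripts in these ratios was not tested.

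The class I genes were then set against interferon-stimulated transcripts within each library, with each barcode thinned to 1000 UMIs so that depth was equal. At that depth 73.1% of PEP-WT and 39.9% of PEP-619WW CD8 T barcodes of run 1 had at least 3 UMIs of the 13 interferon-stimulated genes, as had 61.1% and 34.0% of B cell barcodes and 91.5% and 69.0% of neutrophil barcodes. In the neutrophils of run 2 these shares were 21.2% and 42.4%. Barcodes with at least 3 such UMIs were compared with those that had 0, in the 15 combinations of gate and library with enough of both.

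*B2m*, *H2-K1* and *H2-D1* were higher in the barcodes with interferon-stimulated transcripts in 15 of 15 combinations, with median folds of 1.32, 1.24 and 1.37 and an interval that excluded no difference in 14, 11 and 14. *Psmb10* was higher in 14 (median fold 1.51), *Psmb8* in 13 (1.35) and *Psmb9* in 12 (1.14, ranging from 0.886 to 3.41), with an interval above no difference in 9, 11 and 5. *Tap1* and *Tapbp* were higher in 12 (median folds 1.29 and 1.33) and *Tap2* in 11 (1.14, ranging from 0.323 to 2.77), with an interval above no difference in 5, 6 and 2. The median folds of run 1 and run 2 were 1.08 and 1.69 for *Tap1*, 1.07 and 1.59 for *Tap2*, and 1.38 and 1.23 for *Tapbp*. In run 1 the interval of *Tap2* lay above no difference in 0 of 8. *Nlrc5* was higher in 13, but its interval excluded no difference in only 4, and its largest fold, 12.3, came from the small B cell gate of run 2. The constitutive *Psmb5*, *Psmb6* and *Psmb7* had median folds of 1.03, 1.03 and 1.02 and were higher in 9, 8 and 9 of 15. Their folds ranged from 0.691 to 1.98, from 0.762 to 1.74 and from 0.659 to 2.14. Their intervals lay above no difference in 1, 1 and 0. The share of all genes that were higher in this split was not computed. Barcodes of a gate share a library and can hold more than 1 cell type, so these folds describe the barcodes and have no replicate.

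**Figure D4:**
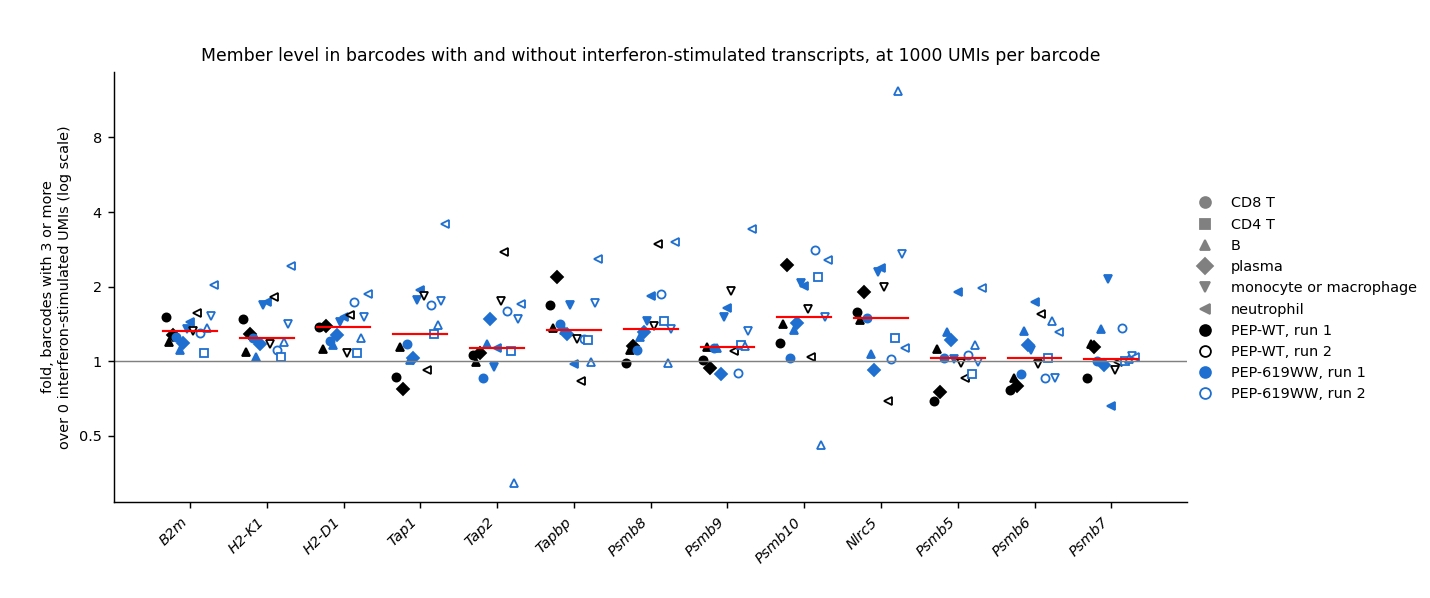
Each symbol is the fold of a gene (x axis) between barcodes with at least 3 and with 0 interferon-stimulated UMIs in 1 gate of 1 library, on a log y axis. Symbol shape is the gate, black is PEP-WT and blue PEP-619WW, filled is run 1 and open run 2, and the red line is the median of 15. All symbols of B2m, H2-K1 and H2-D1 lie above 1, while those of Psmb5, Psmb6 and Psmb7 lie around it.

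At equal depth the share of barcodes with a UMI gave the same order as the level for *Psmb9* in all 6 gates of run 1. *Psmb9* was found in 49.4% of PEP-WT B cell barcodes of run 1 (exact binomial interval 48.2 to 50.6%) and in 37.3% of PEP-619WW ones (35.6 to 39.1%), with 92 and 64 barcodes left out as too shallow. Without thinning the shares were 83.8% and 79.5%, at median depths of 2837 and 3495.5 UMIs. As a background, hemoglobin-rich barcodes outside every gate had *Psmb9* in 9% of the PEP-WT (6.67 to 11.8%) and 19.6% of the PEP-619WW ones (10.2 to 32.4%) at equal depth. In CD8 T cells the shares at equal depth were 44.1% and 39.1%, in the monocyte or macrophage gate 50.8% and 40.3%, and in neutrophils 54.8% and 43.6%. *Psmb8* was found in 60.9% of PEP-WT and 50.7% of PEP-619WW B cell barcodes and in 71.4% and 59.8% of monocyte or macrophage barcodes, but in 63.1% and 64.8% of CD4 T barcodes. In run 2 the order was reversed, with *Psmb9* in 11.4% and 15.8% of monocyte or macrophage barcodes. The hemoglobin-rich barcodes of PEP-WT in run 2 had it in 5.56% (1.53 to 13.6%, 4 of 72), an interval that held the PEP-WT share, and those of PEP-619WW were too few to give one.

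*Nlrc5* was found in 10.1% and 10.5% of CD8 T barcodes, whose intervals overlapped, against a background of 0.783% and 3.57% from 4 and 2 barcodes.

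Across the 12 sums of run 1 (6 gates in 2 genotypes, which share libraries and depth), the genes outside the set whose log2 levels followed its mean most closely were *Ifi47* (Pearson r = 0.96), *Hcls1* (0.96), *Gbp7* (0.95), *Gnb2* (0.95) and *Capza2* (0.95). *Ifi47* and *Gbp7* encode interferon-inducible GTPases. Over 7 sums of run 2 the same r was 0.90 for *Ifi47* and 0.83 for *Gbp7*, but 0.57 for *Hcls1*, 0.08 for *Gnb2* and -0.51 for *Capza2*. Within the set, *Tapbp* followed the mean of the other genes most closely in run 1 (0.89) and *B2m* least (0.27), whereas in run 2 *H2-K1* did so most (0.98) and *Tapbp* least (0.80).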

How the data were processed

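The deposited files hold raw counts of UMIs per gene and barcode, which the authors made on the mm10 transcriptome. The submitters' processing notes name Cell Ranger 6.0.0, and the methods of the study a later version. Every barcode was kept, and no doublet caller was run. Of 32285 gene identifiers, 32158 were matched to a symbol. UMIs were summed per gate and library and divided by the summed total of all genes (CPM). Levels carry exact Poisson intervals and ratios exact conditional binomial intervals, all at 95%. The ratio was also run on Poisson counts simulated with known folds, which hold no variation between mice or libraries. A gate was compared where both genotypes had at least 50 barcodes, and background shares used genes with at least 100 UMIs. The 10 genes, the lists and the gates were chosen with earlier results of these data known. All 10 genes are named; from each other list, those with the 2 largest or 2 smallest ratios in a gate with at least 100 UMIs could be named, with *Psmb5*, *Psmb6*, *Psmb7*, marker genes, and the 5 genes most like the set (mean of at least 100 CPM, log2 of CPM + 10). *Irf2*, *Psmb4* and *H2-Q10* are shown by that rule. Positions come from the GRCm38 annotation and promoter windows from RefSeq. Alternatives were another scaling, totals without 401 immunoglobulin and hemoglobin genes, single-gate barcodes, stricter gates, equal weights, and filters on depth, mitochondrial share and *Mt2*. Values were computed with numpy 2.4.6 and scipy 1.17.1 in python 3.11.15 and drawn with matplotlib 3.10.9.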

Additional observations from a re-analysis of the deposited data

Results flagged for a closer look

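The sign of the genotype ratio differed between the runs, by a log2 ratio of at least 0.322 each way, for 6 values in the myeloid gates. *Psmb9* in neutrophils, at 0.319 in run 2, fell just short of this. In the monocyte or macrophage gate the log2 ratio of PEP-619WW to PEP-WT was -0.40 in run 1 and 0.43 in run 2 for *Psmb8*, -0.47 and 0.44 for *Psmb9*, and -0.39 and 0.37 for *Psmb10*. In neutrophils it was -0.38 and 0.93 for *Tapbp*, -0.44 and 0.50 for *Psmb8*, and -0.51 and 0.43 for *Psmb10*. The difference between the runs was not tested, since each genotype is 1 library in each run.

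Melanocytic barcodes, a class that no gate describes, numbered 274 in PEP-WT and 27 in PEP-619WW in run 2 and 0 in run 1. Of them, 195 and 19 were in at least 1 gate, most in the monocyte or macrophage gate. In them the 7 monocyte or macrophage markers, all detected, summed to 8165 CPM in PEP-WT and 8299 CPM in PEP-619WW. The 6 melanocyte markers, all detected, summed to 3526 and 651 CPM. The levels of these barcodes are therefore not those of a pure cell class. *B2m* was at 1428 and 2809 CPM and *Psmb9* at 146 and 233 CPM in them. The genotypes were not compared there because PEP-619WW had fewer than 50 such barcodes.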

How the results depend on the processing

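No paired analysis was possible because the sources do not say how the runs relate, and no library was left out because each genotype has 1 in each run. Of the 41 of 60 values of run 1 whose interval excluded 0, 320 of 328 values under 8 alternatives had the same sign, and in run 2 160 of 160. The 8 exceptions lay in *B2m* and *Psmb10* in neutrophils and *H2-D1* in B cells, plasma cells and the monocyte or macrophage gate.

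With median-ratio scaling the median log2 ratio of the 10 genes was -0.0243 in the monocyte or macrophage gate and -0.0718 in neutrophils of run 1, and 0.32 and 0.38 in run 2. Leaving immunoglobulin and hemoglobin genes out of the total gave 0.0129 in B cells of run 1, in place of -0.04. In run 2 single-gate barcodes gave 0.39 in the monocyte or macrophage gate and 1.06 in neutrophils, equal weights gave 0.75 in neutrophils, and leaving out the 5% of barcodes with the most UMIs gave 0.40 in the monocyte or macrophage gate. There the split by *Folr2*, added after seeing the data, gave 0.60 with and 0.29 without it. Leaving out melanocytic barcodes, also added then, gave 0.44 there and 0.61 in neutrophils.

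The cut was also set at a log2 ratio of 0.32 in place of 1.5-fold. Lower in PEP-619WW by it were 2 genes in B cells, 1 in CD4 T cells and 1 in CD8 T cells of run 1. There 11.1%, 16.7% and 10.5% of all genes were. In the monocyte or macrophage gate, neutrophils and plasma cells 3, 4 and 2 were, against 16.5%, 24.1% and 12.6% of all genes. Higher by it were 2 genes in CD4 T cells, against 15.8% of all genes, and none in the other gates. In place of 0, stricter gates counted 2 in CD4 T cells and 1 in neutrophils, where 10.6% and 13% of all genes were past 1.5-fold, and single-gate barcodes and equal weights each counted 1 in neutrophils, where 34.3% and 18.7% were. The causes were not tested. Requiring at least 20 UMIs raised the share of all genes past 1.5-fold in CD8 T cells from 6.09% to 12.7%. Depth limited *Nlrc5* most, with 13 UMIs in the smallest compared sum of a whole gate. Among PEP-WT neutrophil barcodes of run 2 in no other gate it had 6 UMIs.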
